A study of Homo sapiens with 6 samples.

Results

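The calcitonin receptor family consists of 2 related receptors, CALCR and CALCRL, and 3 small accessory proteins, RAMP1, RAMP2 and RAMP3. CALCR was chosen by its measured difference between the groups described here, which was large, and the other members by their relation to it and not by their values. Of these 5 genes, 4 (CALCR, CALCRL, RAMP1 and RAMP2) have a row among the 17758 genes of the expression table, and RAMP3 was not analysed here. RNA came from T47D cells, a human breast ductal carcinoma line that expresses the oestrogen receptor, and in both groups the cells carried a lentiviral short hairpin RNA. The hairpin was non-targeting in 3 libraries (shNC) and directed against CUEDC1, a gene for a ubiquitin-binding CUE-domain protein, in the other 3 (shCUEDC1). Both groups were stable lines in the same medium with serum, and no calcitonin or other ligand treatment is given in the labels. The number of hairpins and of independent infections is not stated, so a hairpin's effect on other transcripts cannot be told apart from the loss of CUEDC1. The 3 libraries of a group are described as biological replicates, without saying whether they are separate cultures or infections, so p-values reflect only how far these libraries spread.

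CALCR and CALCRL are class B1 G protein-coupled receptors, which bind peptide hormones and signal mainly through Gs, adenylyl cyclase and cyclic AMP. RAMPs are single-pass membrane proteins that pair with either receptor and set which peptide it binds. CALCR alone is the calcitonin receptor, and CALCR with a RAMP is an amylin receptor. CALCRL needs a RAMP to reach the cell surface, and it forms the CGRP receptor with RAMP1 and adrenomedullin receptors with RAMP2 or RAMP3. T47D is known as a breast cancer line that carries calcitonin receptors.

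On GRCh38 (GENCODE annotation), CALCR spans about 150 kb of chromosome 7 on the minus strand (93424487 to 93574730). CALCRL is on the minus strand of chromosome 2 (187343129 to 187448460), and RAMP1 is on the plus strand of the same chromosome (237858893 to 237912114). RAMP2 is on the plus strand of chromosome 17 (42758447 to 42763041), where the antisense gene RAMP2-AS1 overlaps it. Whether reads were counted by strand is not given in the sources used here, so reads of those 2 genes cannot be told apart with certainty.

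CALCR has 2 starts in the RefSeq promoter table (GRCh38.p14), 14.9 kb apart, and the deposited counts sum over all its transcripts. The 250 bases before each start are printed because CALCR is the member with the large difference, and because the 2 windows are unlike each other. Capitals mark matches, on either strand, to the GC box letters GGGCGG, the cyclic AMP response element TGACGTCA, its shorter core TGACG or the TATA box TATAAA. The outer start has its window at chr7:93574725-93574974 and the inner start at chr7:93559811-93560060, both on the minus strand and written 5′ to 3′.
CALCR outer start: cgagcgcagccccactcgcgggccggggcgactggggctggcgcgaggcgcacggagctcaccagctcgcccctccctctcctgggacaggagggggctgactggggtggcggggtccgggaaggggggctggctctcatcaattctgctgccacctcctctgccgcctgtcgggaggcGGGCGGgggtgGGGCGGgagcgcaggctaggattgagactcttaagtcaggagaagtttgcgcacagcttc
CALCR inner start: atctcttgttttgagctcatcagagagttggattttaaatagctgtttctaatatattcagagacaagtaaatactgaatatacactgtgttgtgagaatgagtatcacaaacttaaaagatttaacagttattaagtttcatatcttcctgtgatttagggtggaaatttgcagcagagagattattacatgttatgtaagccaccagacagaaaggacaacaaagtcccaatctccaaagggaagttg
The outer window is 70.8% G or C and holds 2 GC boxes and none of the other letters. The inner window is 34.0% G or C and holds none of the 4. For comparison, the median window of this length over 35116 RefSeq starts is 58.0% G or C. A GC box occurs in 42.6% of those windows, the full cyclic AMP response element in 1.65%, that core in 21.2% and the TATA box letters in 10.7%. Such matches describe the letters only.

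The body of CALCR also holds 2 microRNA genes on its own strand, outside any annotated CALCR exon. Their levels were not measured in this poly(A) library, and the mature sequences are given as what the locus encodes, with the seed (bases 2 to 8) in capitals.
hsa-miR-489-3p: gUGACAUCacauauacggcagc
hsa-miR-653-5p: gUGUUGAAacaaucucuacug
hsa-miR-653-3p: uUCACUGGaguuuguuucaaua
The 3 seeds differ from each other.

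Totals were between 18924327 and 19731609 estimated reads per library, and 13824 genes were tested. The library shNC 3 stood apart. Its SD of log2 differences from shNC 1 and 2, over genes at 10 CPM or more, was 0.236 and 0.256, against 0.107 between shNC 1 and shNC 2. Between shNC 1 or 2 and the shCUEDC1 libraries this SD was 0.231 to 0.239. So shNC 3 was about as far from shNC 1 and 2 as the knockdown libraries were. CUEDC1, the target of the hairpin, was at 109.5, 109.3 and 93.2 CPM (counts scaled to library size, with TMM factors) in shNC 1, 2 and 3 and at 31.4, 33.8 and 32.0 CPM in the shCUEDC1 libraries. Markers of luminal breast epithelium were abundant, with 10 of 10 tested and a summed level of 8700 to 10700 CPM in shNC and 10800 to 10900 CPM in shCUEDC1. Markers of cell types known for these receptors summed to far lower levels, though some had enough reads to be tested. The 10 endothelial markers summed to between 3.34 and 5.21 CPM in shNC and between 3.68 and 4.48 CPM in shCUEDC1. Of these, 1 was tested and 8 stayed under 0.5 CPM in every library, with CDH5 and TEK never above 1 read. The 8 osteoclast markers summed to between 22.3 and 27.1 CPM against 23.4 to 25.4 CPM. Of these, 4 were tested and 3 stayed under 0.5 CPM in every library, with OCSTAMP and DCSTAMP never above 1 read. The 7 neuroendocrine markers summed to between 4.43 and 6.62 CPM against 5.71 to 8.47 CPM. Of these, 2 were tested and 4 stayed under 0.5 CPM in every library, with CHGB never above 1 read. Of the 8 leukocyte and fibroblast markers, 6 were tested and 2 stayed under 0.5 CPM in every library, with CD3E never above 1 read. All 8 summed to between 7 and 11.2 CPM in shNC and 12.6 to 15 CPM in shCUEDC1. The part of that last difference in the results was not tested.

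CALCR (Entrez 799), the calcitonin receptor, was detected at a low level in the control line and at a higher, still low, level in the knockdown. It had 20.0, 23.0 and 26.8 estimated reads in shNC 1, 2 and 3, or 1.01, 1.16 and 1.40 CPM. It had 178, 155 and 160 reads in shCUEDC1 1, 2 and 3, or 9.07, 7.92 and 8.28 CPM. The groups lie far apart, and the lowest shCUEDC1 library is several times the highest shNC library. Means (± SD, n = 3) were 1.19 ± 0.199 CPM for the control hairpin and 8.43 ± 0.587 CPM for the knockdown. The fitted fold was 7.03 (95% interval 5.40 to 9.14), a log2 difference of 2.81. Because CALCR was chosen for this difference, it is given as a description and no test is attached. In bulk RNA, more cells expressing the receptor and more receptor RNA per cell cannot be told apart.

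By fitted log2 difference, CALCR ranked 1 of the 13824 genes tested. The next were NDST4, a heparan sulfate sulfotransferase gene, at 2.59 and SIGLEC6, a sialic acid-binding lectin, at 2.39. Both were more variable among the shNC libraries, at 0.516 ± 0.384 CPM for NDST4 and 3.45 ± 2.54 CPM for SIGLEC6 (SD, n = 3). When each library was left out in turn, the log2 difference of CALCR stayed between 2.71 and 2.95. Its rank, its spread and this range all draw on the values by which CALCR was chosen. They are given as a description only.

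CALCRL (Entrez 10203), the receptor for CGRP and adrenomedullin, was barely detected. It had 1, 11 and 6.44 estimated reads in shNC and 14, 14 and 13.9 in shCUEDC1, that is 0.0506, 0.554 and 0.338 CPM against 0.713, 0.716 and 0.718 CPM. All 3 shCUEDC1 libraries were above every shNC library, but the shNC values scatter widely and shNC 1 is a single read. CALCRL passed the low-count filter through the group in which it was higher. Its log2 difference was 1.21 (95% interval 0.02 to 2.40), and it was not called (edgeR adjusted p = 0.191). The estimate depended on single control libraries, at 0.71 without shNC 1 and 1.95 without shNC 2 (edgeR adjusted p of 0.387 and 0.0820).

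RAMP1 (Entrez 10267), the partner that makes CALCRL a CGRP receptor and CALCR an amylin receptor, had 8, 4 and 10 estimated reads in shNC and 3, 2 and 4 in shCUEDC1. The shNC libraries were mostly higher, but shNC 2 and shCUEDC1 3 overlap at 0.202 and 0.207 CPM. Means were 0.377 ± 0.163 CPM and 0.154 ± 0.0525 CPM (SD, n = 3 each), with an exact two-sided permutation p of 0.2. Summed over a group, 22 reads (95% Poisson interval 13.8 to 33.3) stand against 9 (4.12 to 17.1). These intervals overlap and cover counting error only.

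RAMP2 (Entrez 10266), the adrenomedullin partner of CALCRL, had 7.2, 9 and 7 estimated reads in shNC and 10, 16 and 11.03 in shCUEDC1. The lowest shCUEDC1 library, at 0.510 CPM, was just above the highest shNC library, at 0.453 CPM. Means were 0.395 ± 0.0507 CPM and 0.633 ± 0.163 CPM (SD, n = 3 each), with an exact two-sided permutation p of 0.1, the lowest value possible for 3 against 3. Summed reads were 23.2 (95% Poisson interval 14.7 to 34.8) and 37.0 (26.1 to 51.0), so the intervals overlap. RAMP1 and RAMP2 both fell under the low-count filter and were not part of the fit. Over the 3 members other than CALCR the Benjamini-Hochberg adjusted exact permutation p was 0.15 for CALCRL, 0.2 for RAMP1 and 0.15 for RAMP2. With 3 libraries a group this test cannot reach 0.05 at any depth, so it does not show whether the RAMPs differed. Both RAMPs rest on 2 to 16 reads per library.

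Of the 4 members in the table, 2 were tested and 1, CALCR, which was chosen for it, passed an adjusted p of 0.05, against 9.96% of all genes tested (5.19% higher and 4.77% lower in shCUEDC1). In 3 of the 4 every shCUEDC1 library exceeded every shNC library. Over all genes tested, 31.3% had groups that did not overlap, and in 15.7% shCUEDC1 was the higher. Nothing is read from these counts, since CALCR was chosen on the same contrast.

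**Figure D1:**
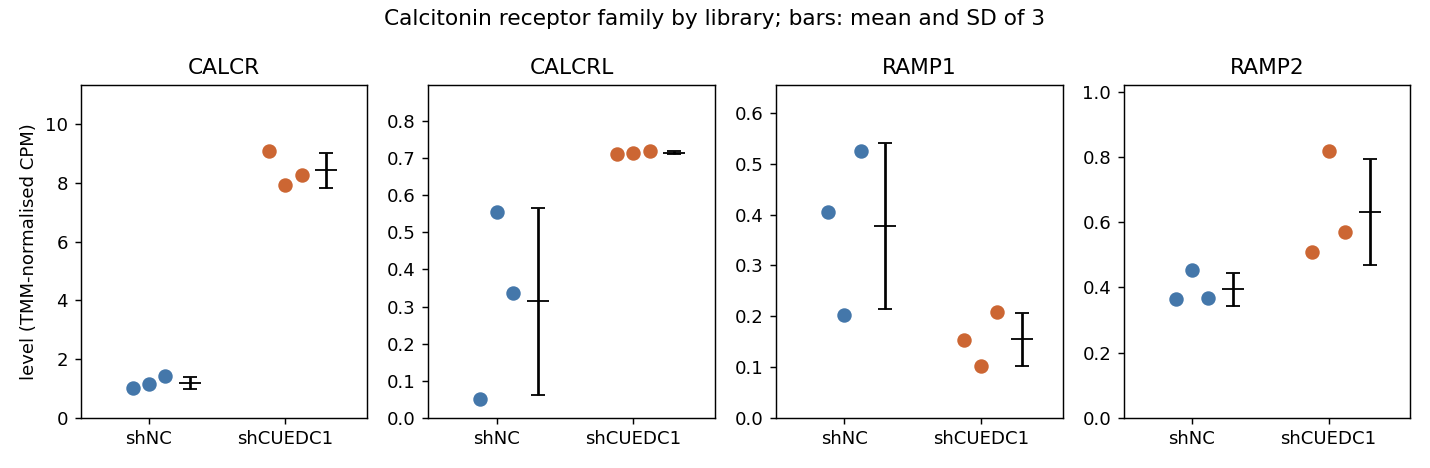
Level of each family member in every library, in TMM-normalised CPM on a linear axis that starts at 0 and differs between panels. Points are libraries, and the bar gives the mean and SD of 3; CALCR moves from about 1.19 to 8.43 CPM, while CALCRL, RAMP1 and RAMP2 stay under 1 CPM in all 6 libraries.

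Levels can be compared between genes only per length, for which the deposited FPKM values (fragments scaled by gene length and library size) were used. CALCR was at 0.29, 0.33 and 0.40 FPKM in shNC 1, 2 and 3 and at 2.56, 2.24 and 2.32 FPKM in shCUEDC1 1, 2 and 3. RAMP2 was at 0.52, 0.65 and 0.53 FPKM against 0.72, 1.16 and 0.80 FPKM. RAMP1 was at 0.53, 0.26 and 0.68 FPKM against 0.20, 0.13 and 0.26 FPKM. CALCRL was at 0.01, 0.11 and 0.06 FPKM against 0.14, 0.15 and 0.14 FPKM.

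The order of the members therefore differed between the groups. In shNC, the mean FPKM descended from RAMP2 (0.567 ± 0.0723) through RAMP1 (0.490 ± 0.213) and CALCR (0.340 ± 0.0557) to CALCRL (0.0600 ± 0.0500; SD, n = 3). RAMP1 overlapped both RAMP2 and CALCR in that order, so it cannot be placed between them, while CALCRL was below the other members in all 3 libraries. In shCUEDC1 the order was CALCR (2.37 ± 0.167), RAMP2 (0.893 ± 0.234), RAMP1 (0.197 ± 0.0651) and CALCRL (0.143 ± 0.00577), and only RAMP1 and CALCRL overlapped. CALCR was the highest member in each shCUEDC1 library and in no shNC library.

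Set against its partners, CALCR amounted to 0.276, 0.363 and 0.331 times the summed FPKM of RAMP1 and RAMP2 in shNC 1, 2 and 3. In shCUEDC1 it was 2.78, 1.74 and 2.19 times that sum. RAMP1 made up 50.5%, 28.6% and 56.2% of the RAMP1 and RAMP2 sum in shNC and 21.7%, 10.1% and 24.5% in shCUEDC1. Both ratios separate the groups, but the first rests on CALCR, chosen for its difference, and the second on a few reads per library. Even in shCUEDC1, CALCR was a low transcript: between 39.6% and 41.2% of the genes in the table had a lower FPKM, against 24.9% to 27.2% in shNC.

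The class B1 receptor that dominated in these cells was a different one. VIPR1, a receptor for vasoactive intestinal peptide that also couples to Gs, was at 51.1, 48.7 and 55.7 FPKM in shNC and at 51.1, 54.7 and 53.9 FPKM in shCUEDC1. It did not pass the test, with a log2 difference of 0.06 (edgeR adjusted p = 0.563). Without shNC 3 it was called, at 0.12 (edgeR adjusted p = 0.0346). GIPR, the receptor for the incretin GIP, was at 0.647 ± 0.0737 and 0.593 ± 0.0651 FPKM (SD, n = 3), also not called (edgeR adjusted p = 0.806). Of 13 other class B1 receptors listed, 9 are in the table, and VIPR1 and GIPR were the only ones with enough reads to be tested.

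**Figure D2:**
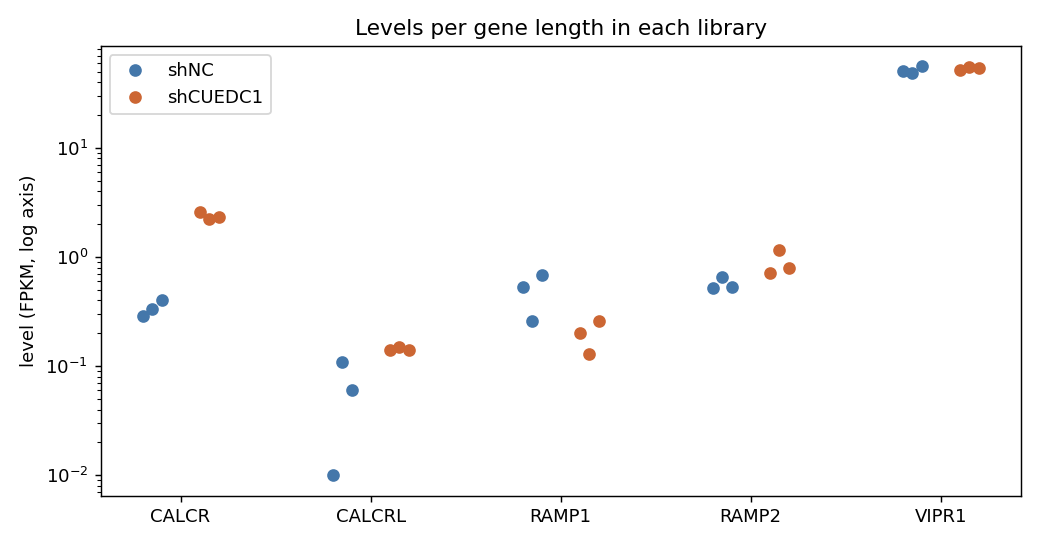
FPKM of the family members and of VIPR1 in each library, on a log axis; blue points are shNC and orange points are shCUEDC1. CALCR lies within the range of the RAMPs in shNC and above them in shCUEDC1, and both stay far below VIPR1 at 48.7 to 55.7 FPKM.

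With all libraries, none of the 2 tested genes for peptides that bind these receptors passed the test, beside 9.96% called over all genes. ADM, adrenomedullin, was at 7.54, 11.8 and 5.59 FPKM in shNC and 9.87, 9.65 and 10.03 FPKM in shCUEDC1, the most abundant ligand on that scale. The groups overlap, with shNC 2 the highest library and shNC 3 the lowest (log2 difference 0.26, edgeR adjusted p = 0.550). The value hung on single controls: without shNC 2 ADM was called, at 0.60 (edgeR adjusted p = 0.0286), and without shNC 3 it was at 0.04 (0.872). ADM2, intermedin, was at 17.8, 18.3 and 16.1 CPM against 13.6, 17.2 and 13.7 CPM (log2 difference -0.23, edgeR adjusted p = 0.236). Without shNC 3 it was called, at -0.28 (edgeR adjusted p = 0.0313). CALCB, which encodes a CGRP, had at most 1 read in any library, and IAPP, the amylin gene, between 0 and 10.4. CALCA, the calcitonin gene, was not analysed here.

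Among 10 genes that regulate these receptors, 1 rose and 0 fell, a share close to the 9.96% called over all genes tested, with a median log2 difference of 0.12 (-0.004 over all genes). Without shNC 3 the count was 4 rises and 2 falls, and with any 1 library left out 1 to 6 were called. Over all genes 3925 were called without shNC 3, against 1377 with all libraries, so 9.96% is not the share for that setting. Leaving out shCUEDC1 2 gave the fewest calls over all genes, 468. The same limit holds for every list count given below with a library left out. Nothing is read from those counts. ARRB1, beta-arrestin 1, which binds activated receptors and uncouples them from G proteins, rose from 94.5 ± 9.20 to 136 ± 11.5 CPM (SD, n = 3 each). Its log2 difference was 0.53 (SE 0.0820, edgeR adjusted p = 0.00427), and its call held when any single library was left out (highest edgeR adjusted p 0.0355). NSF, a membrane fusion ATPase, and SLC9A3R1, the scaffold NHERF1, both of which are known to bind RAMP3, differed by 0.13 each and were not called (edgeR adjusted p = 0.220 and 0.170). Without shNC 3 both were called, at 0.21 and 0.19 (edgeR adjusted p = 2.84e-04 and 2.60e-04).

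Of 10 tested G protein alpha subunits and phospholipase C beta genes, 0 rose and 1 fell, again close to the 9.96% of all genes. Without shNC 3 there were 2 rises and 2 falls, and 0 to 4 were called with any 1 library left out. GNAS, the Gs subunit through which these receptors act, was at 1148, 1110 and 1069 CPM in shNC and 1081, 1059 and 1135 CPM in shCUEDC1, with overlapping groups (log2 difference -0.02, edgeR adjusted p = 0.817). GNAI1, an inhibitory alpha subunit, fell from 29.3 ± 4.85 to 19.9 ± 0.403 CPM (log2 difference -0.56, edgeR adjusted p = 0.0143). That call was lost without shCUEDC1 1, 2 or 3, with an edgeR adjusted p of 0.0705, 0.0795 and 0.0729. GNAI2, another inhibitory subunit and after GNAS the most abundant uncalled gene of the list by FPKM, differed by 0.16 and was not called (edgeR adjusted p = 0.199).

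Among 8 tested adenylyl cyclases, which make cyclic AMP, 1 rose and 2 fell, with a median log2 difference of -0.41 (over all genes, 5.19% rose and 4.77% fell, with a median of -0.004). The number called was 0 to 5 with any 1 library left out, and without shNC 3 it was 2 rises and 3 falls. ADCY10, the soluble cyclase that responds to bicarbonate and not to G proteins, rose from 1.06, 1.15 and 1.42 CPM to 2.82, 2.29 and 2.40 CPM (log2 difference 1.04, edgeR adjusted p = 0.0169). ADCY7 fell from 1.99, 1.59 and 1.72 CPM to 0.509, 0.971 and 0.678 CPM (log2 difference -1.30, edgeR adjusted p = 0.0202). ADCY1, a calmodulin-stimulated cyclase, fell from 4.69, 4.07 and 5.31 CPM to 2.83, 2.46 and 2.48 CPM (log2 difference -0.85, edgeR adjusted p = 0.0129). All 3 are at low levels, and their groups do not overlap, beside 31.3% of all genes tested without overlap. ADCY2, ADCY3 and ADCY5 were also lower in every shCUEDC1 library than in any shNC library, and were not called. The cyclases with the highest FPKM, ADCY6 and ADCY9, were not called, at log2 differences of 0.09 and 0.20 (edgeR adjusted p = 0.649 and 0.245). ADCY9 was called without shNC 3, at 0.32 (edgeR adjusted p = 1.01e-04). The call of ADCY10 was lost without any 1 library except shNC 3, with an edgeR adjusted p of 0.0513 (without shNC 2) to 0.0910 (without shCUEDC1 1). It was also lost with all libraries by limma-trend on log2(FPKM + 0.5) and log2(FPKM + 0.1), with a limma adjusted p of 0.0713 and 0.0664. For ADCY7 the edgeR adjusted p was 0.0826, 0.0991 and 0.0979 without shNC 1, shCUEDC1 1 and shCUEDC1 3, and for ADCY1 it was 0.0769 and 0.0729 without shCUEDC1 2 and 3.

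Downstream of cyclic AMP, protein kinase A and EPAC genes had 1 rise and 1 fall among 9 tested, beside 9.96% called over all genes. Without shNC 3 there were 2 rises and 1 fall, and 1 to 3 were called with any 1 library left out. PKIB, an inhibitor peptide of protein kinase A, rose from 14.04, 13.6 and 10.1 CPM to 21.9, 26.0 and 23.1 CPM (log2 difference 0.91, SE 0.126, edgeR adjusted p = 0.00233). Its call held without any single library (highest edgeR adjusted p 0.0221). PRKAR2A, a regulatory subunit, fell from 72.5 ± 9.46 to 55.5 ± 3.53 CPM (log2 difference -0.39, edgeR adjusted p = 0.0287), and lost its call without shCUEDC1 1, 2 or 3 (edgeR adjusted p 0.107, 0.0849 and 0.142) and with the replicate number as a block (0.0532). By limma-trend on log2(FPKM + 0.5) and log2(FPKM + 0.1) its limma adjusted p was 0.0670 and 0.0651. The catalytic subunit PRKACA and the main regulatory subunit PRKAR1A were not called, at log2 differences of -0.03 and -0.06 (edgeR adjusted p = 0.845 and 0.456).

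Of 9 tested phosphodiesterases, which degrade cyclic AMP, 0 rose and 0 fell, beside 9.96% called over all genes. Without shNC 3, 1 of them rose. The highest by FPKM, PDE7A and PDE8A, differed by -0.09 and -0.13 (edgeR adjusted p = 0.355 and 0.348). Of 8 CREB factors and coactivators, 0 rose and 1 fell, beside 9.96% called over all genes, and without shNC 3 2 fell. CRTC3, a coactivator of CREB, fell from 43.4 ± 2.63 to 34.8 ± 1.36 CPM (log2 difference -0.32, edgeR adjusted p = 0.0183). It lost its call without shNC 1 (0.0813) and without shCUEDC1 1, 2 or 3 (edgeR adjusted p 0.0648, 0.107 and 0.0783). ATF1 and CRTC2 were not called, at log2 differences of 0.03 and -0.03 (edgeR adjusted p = 0.824 and 0.844).

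Genes that cyclic AMP is known to induce had 0 rises and 0 falls among 15 tested, with a median log2 difference of -0.11. Over all genes 9.96% were called and the median was -0.004. At that share few calls would be made among 15 genes, so nothing is read from the 0. AREG, amphiregulin, an EGF receptor ligand, had the highest FPKM of the list, followed by JUNB, an AP-1 subunit. It was at 115, 116 and 66.2 CPM in shNC 1, 2 and 3 and at 58.9, 60.7 and 59.7 CPM in shCUEDC1. The library shNC 3 lies near the knockdown rather than near its own group. AREG had a log2 difference of -0.73 (edgeR adjusted p = 0.0806). Without shNC 3 it was called, at -0.95 (edgeR adjusted p = 2.27e-16), and DESeq2 also called it with all libraries. JUNB differed by 0.17 (edgeR adjusted p = 0.109), and without shNC 3 by 0.16 (0.0203). With that library left out, 2 of the cyclic AMP targets rose and 3 fell, beside 3925 genes called over all.

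**Figure D3:**
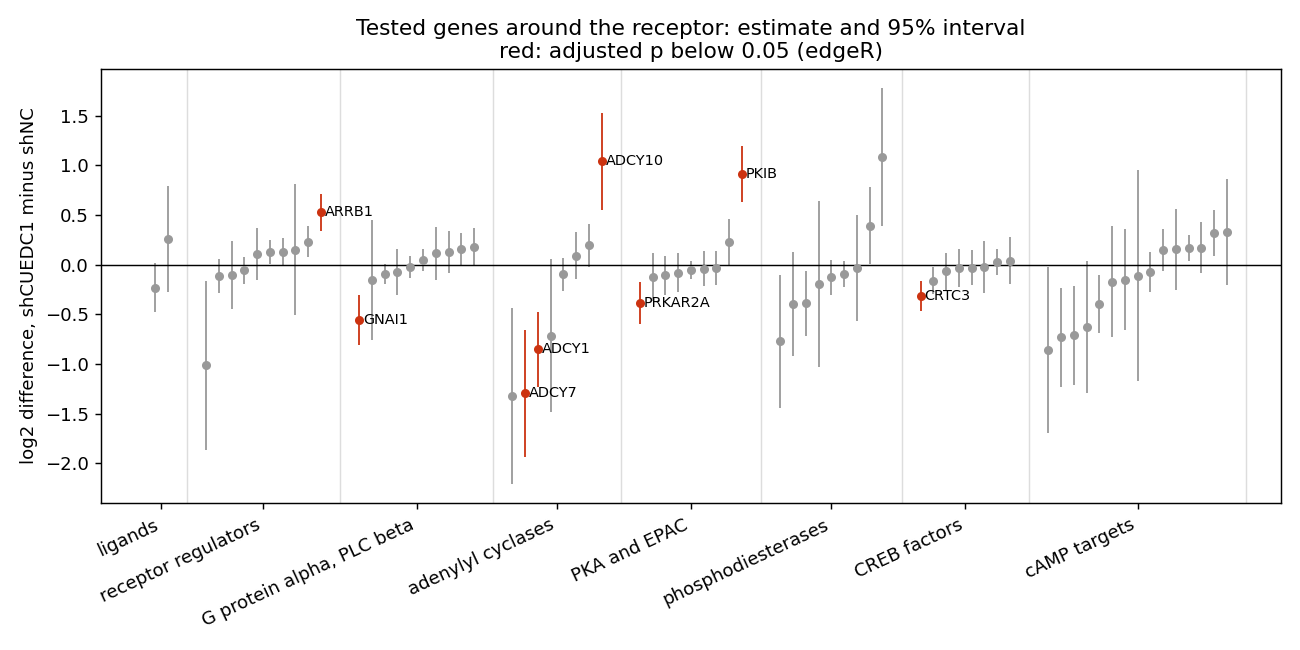
Log2 difference (shCUEDC1 minus shNC) with its 95% interval for each tested gene of the ligand, regulator, G protein, cyclase, kinase, phosphodiesterase, CREB and target lists, sorted within a list. Red marks the 8 genes called by edgeR: ARRB1, ADCY10 and PKIB above 0, and GNAI1, ADCY7, ADCY1, PRKAR2A and CRTC3 below it; most other intervals include 0.

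Neighbours of CALCR on chromosome 7q21 were listed by position and not by function. Of 13 listed neighbours, 10 were tested, and 3 rose and 0 fell, with a median log2 difference of 0.20 (-0.004 over all genes tested, of which 5.19% were called higher). GNG11, the gamma 11 subunit of G proteins, was at 83.7, 85.6 and 118 CPM in shNC and at 193, 194 and 204 CPM in shCUEDC1. All shCUEDC1 libraries were well above shNC, among which shNC 3 was the highest. GNG11 rose by 1.04 on the log2 scale (SE 0.123, edgeR adjusted p = 0.00220). PEG10, a gene derived from a retrotransposon, was at 94.6, 102 and 106 CPM against 189, 184 and 178 CPM. PEG10 rose by 0.87 (SE 0.0549, edgeR adjusted p = 4.01e-05).

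SGCE, epsilon-sarcoglycan, which lies head to head with PEG10 and like it is expressed from the paternal copy, was at 23.2, 25.4 and 17.9 CPM in shNC and 31.5, 29.9 and 29.3 CPM in shCUEDC1. It rose by 0.45 (edgeR adjusted p = 0.0382). The annotated SGCE overlaps PEG10 and CASD1 on the other strand, so reads in the overlap cannot be assigned with certainty where strand is not used. GNG11 and PEG10 held their calls when any 1 library was left out (highest edgeR adjusted p 0.0149 and 0.00151). SGCE lost its call without shNC 1 (0.0877) and without shCUEDC1 1, 2 or 3 (edgeR adjusted p 0.153, 0.128 and 0.117). It was not called by limma-trend on log2(FPKM + 0.5) or log2(FPKM + 0.1) either (limma adjusted p 0.0800 and 0.0785).

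By edgeR with all libraries, the 4 called genes within 2 Mb of CALCR lay toward higher coordinates, but which genes were called depended on the method and the libraries. Toward lower coordinates, 0 of 15 tested genes within 2 Mb rose and 0 fell, and their median log2 difference was 0.006. Over all genes tested, 5.19% rose and 4.77% fell. The largest difference on that side was that of LRRD1, a leucine-rich repeat gene named after its value was seen. It was at 1.70, 2.25 and 1.67 CPM in shNC and 2.84, 2.76 and 2.89 CPM in shCUEDC1, without overlap. Its log2 difference of 0.58 (95% interval 0.14 to 1.03) was larger than those of SGCE and PON3, but it was not called (edgeR adjusted p = 0.0950). By limma-trend on log2(FPKM + 0.5) and log2(FPKM + 0.1) LRRD1 was called (limma adjusted p 0.0441 and 0.0494). The lower side also holds SAMD9, at 0.20 (95% interval 0.03 to 0.37, edgeR adjusted p = 0.134), and VPS50, the nearest tested gene on that side (start at -342 kb from that of CALCR), at 0.006 (edgeR adjusted p = 0.964). Toward higher coordinates, 4 of 10 rose, beside 5.19% over all genes, and 0 fell, with a median of 0.22. GNG11 starts 347 kb and PEG10 and SGCE 1080 kb from the start of CALCR. The fourth is PON3, a paraoxonase, named after its value was seen, which rose from 39.1 ± 4.77 to 49.5 ± 3.30 CPM (log2 difference 0.34, edgeR adjusted p = 0.0424). BET1, between GNG11 and PEG10, was at 0.20 (95% interval 0.02 to 0.38) and not called (edgeR adjusted p = 0.161), without overlap of the groups. CASD1, next to SGCE, was at -0.11 (edgeR adjusted p = 0.637). So with all libraries the genes that rose were interspersed with genes that did not pass the test. The 2 Mb window was added after the data were seen, and the difference between the sides was not tested. PON3 kept its call without shNC 3 and lost it without any other single library (highest edgeR adjusted p 0.180) and by limma-trend on log2(FPKM + 0.5) and log2(FPKM + 0.1), with a limma adjusted p of 0.0600 and 0.0583. Without shNC 3, 2 genes rose on the lower side (SAMD9 and SAMD9L) and 6 on the higher side, with 0 falls on either. The 6 were the 4 above with BET1 and PON2 (edgeR adjusted p of 0.00480 and 0.00773). Over all genes 3925 were called in that setting, rises and falls together, so nothing is read from these counts of rises. GNGT1 and TFPI2, the closest genes on the higher side, had at most 11 and 1.99 reads in any library and were not tested.

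**Figure D4:**
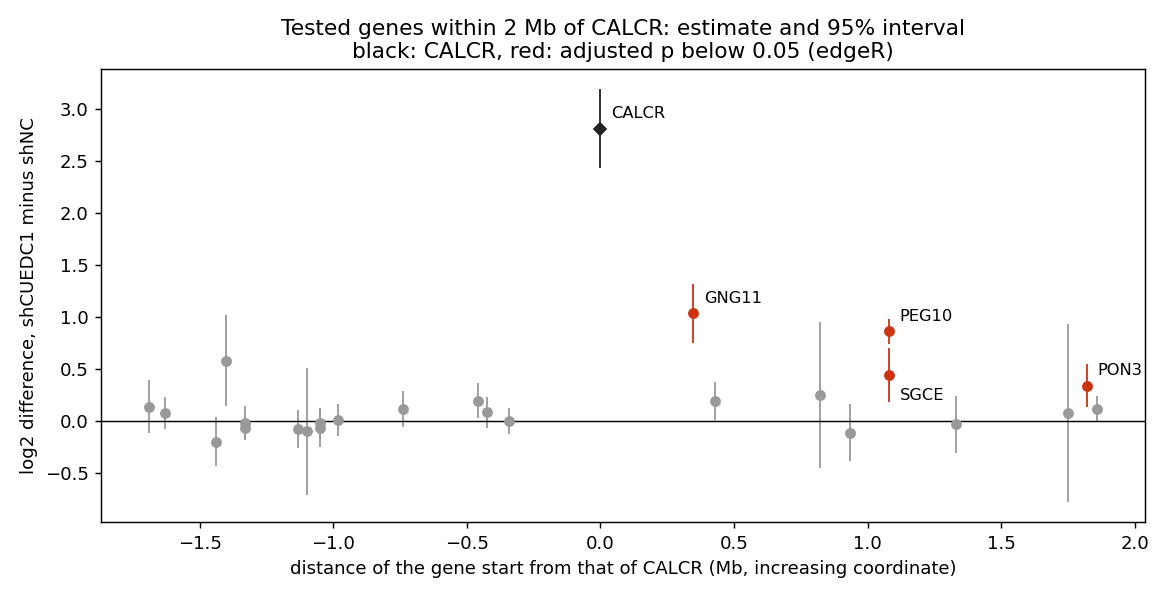
Log2 difference with its 95% interval for each tested gene within 2 Mb of CALCR, by the distance of its start from that of CALCR along increasing coordinates. GNG11, PEG10, SGCE and PON3 (red, called by edgeR) lie at positive distances; of the 15 genes at negative distances none is called, but the intervals of LRRD1 (0.14 to 1.03) and SAMD9 (0.03 to 0.37) lie above 0.

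The genes whose pattern was most like that of CALCR were found by Pearson's correlation of log2(CPM + 0.5) over the 6 libraries, among 11999 other genes with a mean of at least 1 FPKM in the higher group. With 3 libraries in each of 2 groups, such a correlation mostly reflects the group difference, and 108 genes had r above 0.98. The 5 highest were ABLIM3, an actin-binding LIM protein, with r = 0.9985, PEG10 (0.9982), PKP2, a desmosomal plakophilin (0.9975), SLC16A4, a monocarboxylate transporter family member (0.9974), and ERO1A, an oxidase of the endoplasmic reticulum (0.9973). PEG10 is also among the neighbours above, but its rise there and its r here come from the same contrast, so they are not separate observations. ABLIM3 was at 4.39, 4.48 and 4.93 CPM in shNC and 8.61, 8.11 and 8.09 CPM in shCUEDC1. PKP2 was at 15.9, 17.0 and 18.1 CPM against 31.6, 29.6 and 29.2 CPM. SLC16A4 was at 4.14, 4.22 and 4.34 CPM against 5.75, 5.79 and 5.86 CPM. ERO1A was at 200.5, 216 and 214 CPM against 343, 334 and 333 CPM. In all 5, as in CALCR, the lowest shNC library was shNC 1. Since the 5 were picked by likeness to CALCR over these same libraries, nothing is read from that. Each of the 5 had a smaller log2 difference than CALCR, from 0.45 for SLC16A4 to 0.87 for PEG10.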

How the data were processed

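Poly(A) RNA of 6 T47D libraries was sequenced after random-primed cDNA synthesis, per the labels' protocols. The authors deposited 1 table with estimated counts per gene (fractional, not normalised), FPKM, TPM and, as a further signal column, counts divided by a size factor per library; TPM, that signal and the group means were not used. The submitters' processing notes name GRCh38 (p13) as the build. Aligner, counter and strand setting: not given in the sources used here. Counts were rounded, filtered with filterByExpr (minimum count 10), normalised by TMM and tested in edgeR 4.0.16 by its robust quasi-likelihood test (R 4.3.3). P-values were adjusted by Benjamini-Hochberg across the 13824 genes. "Rose" and "fell" mean an adjusted p below 0.05. The fit was tested on simulated data. CALCRL, RAMP1 and RAMP2 were also compared by exact permutation of CPM, since both RAMPs were too low for the fit that had been planned for them.

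Members and lists were chosen with earlier results of these data known. Named by rule are all members, the called genes of each list (up to 4 per direction), its 2 uncalled genes with the highest FPKM, the 5 genes most like CALCR, and CUEDC1. Outside this rule, NDST4, SIGLEC6, CALCA, CALCB, IAPP, ADCY2, ADCY3, ADCY5 and some markers are among those also named. So are the neighbours LRRD1, VPS50, SAMD9L, GNGT1, TFPI2, CASD1, PON2 and PON3. Positions come from GENCODE 29, promoters and microRNAs from RefSeq. SLC9A3R1 was matched from its newer symbol by Entrez identifier. Alternatives were RLE factors, other filters, DESeq2 1.42.0, limma 3.58.1 (voom, and trend on log2 FPKM with pseudocounts of 0.5 and 0.1), a replicate block, and each library left out.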

Additional observations from a re-analysis of the deposited data

How the results depend on the processing

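The log2 difference of CALCR was 2.81, and 1.77 by limma-trend on log2(FPKM + 0.5) and 2.50 on log2(FPKM + 0.1), since a pseudocount compresses low values. With each library left out it was 2.71 to 2.95. CALCRL was not called by any fit that gave it an adjusted p; DESeq2 gave none, and the filter on CPM left it out. RAMP1 and RAMP2, by the ratio of mean CPM, differed by -1.29 and 0.68 on the log2 scale and kept those signs under RLE factors, DESeq2, no filter and each library left out. The groups of RAMP2 did not overlap in CPM, so leaving out 1 library could not turn its sign. Kept signs thus do not show that either RAMP differed. The other fits left both RAMPs out as too low. Over all genes, 1377 were called, and 468 to 3925 with 1 library left out (468 without shCUEDC1 2, 3925 without shNC 3). The lists held 11 called genes, and 4 (without shCUEDC1 3) to 34 (without shNC 3) with 1 library left out. Among uncalled genes near 0, leaving out a library turned the sign of GNAS (-0.0509 to 0.00301), PRKACA (-0.106 to 0.0362), ATF1 (-0.00244 to 0.0616), CRTC2 (-0.112 to 0.00932) and GIPR (-0.197 to 0.00434). Same-numbered libraries did not deviate together (r of 0.000717, -0.00419 and -0.00392), so no pairing by number was seen. These values cannot show whether same-numbered libraries were prepared together. With the replicate block, 1117 genes were called over all and 11 in the lists, and CALCR was at 2.81. RAMP1, RAMP2 and CALCRL rest on 1 to 16 reads per library.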
